A study of Rattus norvegicus with 10 samples.

Results

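The genes of cholesterol and fatty acid synthesis were examined in HSC-2, a hepatic stellate cell line of the rat, and in 4 lines derived from it. The set was a list of 35 genes, and a gene was taken where the platform annotation gave a probe set exactly 1 symbol and that symbol was on the list. Of the 35 genes, 34 were measured in this way, out of 13286 genes with such a probe set, and Hmgcs1 was not analysed here. Where a gene had several probe sets, the one with the highest mean over the 10 arrays was used. The lines were untransfected HSC-2, an HSC-2 scrambled control (GFPscr in the series' design), and the clones S1, S4 and S5, transfected to overexpress rno-miR-146a. All were of Wistar origin and grown in high-glucose DMEM with 10% FBS and antibiotics, and each was taken at passage 42 and at passage 43. Each miR-146a line is 1 clone, so a difference from a control line can be that of the clones or of the control. The vector, its promoter and whether the scrambled line is 1 clone are not given in the sources used. The labels do not say whether the passages of a line were grown as separate cultures. The p-values of the comparisons of lines over all arrays therefore rest on the spread between 2 arrays of a line, which may be technical. Those from line means or from 1 passage rest on the spread between the 3 clones. Those of the passage tests with line as a block rest on the spread of the passage change between lines.

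Animal cells make cholesterol from acetyl-CoA through mevalonate, isoprenoids, squalene and lanosterol. The membrane-bound SREBP transcription factors, encoded by Srebf1 and Srebf2, switch these genes on when membranes run short of sterol. The escort protein Scap carries SREBPs to the Golgi for cleavage, and the Insig proteins hold Scap back when sterols are abundant. SREBPs also act on fatty acid synthesis and lipoprotein uptake, while the oxysterol receptors of the LXR family induce exporters such as Abca1. Serum supplies lipoproteins to cultured cells, and stellate cells store retinyl esters in lipid droplets.

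The labels name rno-miR-146a as the microRNA of the clones without naming an arm, and its 5p arm is shown here, printed from RefSeq (GRCr8, chr10:28350053-28350074, minus strand), 5′ to 3′, with its seed (bases 2 to 8) in capitals.
rno-miR-146a-5p: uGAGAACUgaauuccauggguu

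Promoter windows of 250 bases before to 50 after the annotated start, from RefSeq (GRCr8), were found for 27 of the 34 genes. They are shown for Insig1, Idi1, Msmo1 and Tm7sf2, because these genes were among those low in the untransfected line. The capitals mark CCAAT on either strand, the box bound by NF-Y, a factor known to act beside SREBPs. The windows lie at chr4:8057720-8058019, minus strand for Insig1, chr17:66547475-66547774, minus strand for Idi1, chr16:29746863-29747162, plus strand for Msmo1 and chr1:212789492-212789791, minus strand for Tm7sf2, and each is printed in the direction of its gene.
Insig1: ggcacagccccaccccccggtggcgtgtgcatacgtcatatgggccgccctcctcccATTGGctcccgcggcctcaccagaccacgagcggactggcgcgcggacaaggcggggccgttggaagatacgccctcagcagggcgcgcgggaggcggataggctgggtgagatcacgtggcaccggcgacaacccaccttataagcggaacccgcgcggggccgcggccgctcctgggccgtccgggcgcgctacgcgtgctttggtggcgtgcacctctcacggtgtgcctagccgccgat
Idi1: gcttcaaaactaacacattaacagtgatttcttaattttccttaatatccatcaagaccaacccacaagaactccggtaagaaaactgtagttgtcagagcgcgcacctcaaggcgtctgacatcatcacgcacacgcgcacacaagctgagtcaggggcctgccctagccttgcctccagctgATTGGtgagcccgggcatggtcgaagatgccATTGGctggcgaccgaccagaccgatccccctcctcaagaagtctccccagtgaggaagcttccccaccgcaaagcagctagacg
Msmo1: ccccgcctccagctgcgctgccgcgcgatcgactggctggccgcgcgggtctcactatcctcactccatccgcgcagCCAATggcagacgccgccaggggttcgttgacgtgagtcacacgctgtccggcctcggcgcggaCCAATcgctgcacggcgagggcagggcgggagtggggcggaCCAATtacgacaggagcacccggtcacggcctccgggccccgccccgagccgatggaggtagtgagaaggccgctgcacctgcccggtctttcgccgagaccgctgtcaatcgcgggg
Tm7sf2: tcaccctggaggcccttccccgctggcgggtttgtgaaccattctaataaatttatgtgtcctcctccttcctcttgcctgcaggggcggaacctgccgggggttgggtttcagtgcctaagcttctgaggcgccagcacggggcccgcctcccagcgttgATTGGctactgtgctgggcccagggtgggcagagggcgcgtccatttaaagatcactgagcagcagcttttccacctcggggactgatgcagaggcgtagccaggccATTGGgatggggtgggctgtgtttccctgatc

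CCAAT was in the windows of 19 of the 27 genes and in 37.5% of 33469 promoter windows. It was present 3 times in the window of Msmo1, 2 times in those of Idi1 and Tm7sf2, and 1 time in that of Insig1. GGGCGG, a box of Sp1-like factors, was in 22 of the 27 genes and in 33.1% of windows. CACGTG, an E-box, was in 4 genes (Abca1, Insig1, Sc5d and Scap) and in 6.42% of windows. TCACNCCAC, a short form of the sterol regulatory element, was found in 0 of the 27 genes and in 1.12% of windows, and a longer form of that element in 0 and in 0.125%. All motifs were searched on both strands as written. CACGTG is its own reverse complement, and each match of the longer sterol element also holds the short form. These matches describe letters in the windows and are not binding sites.

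The lines carried markers of stellate cells. These are bulk samples, in which fewer cells of a type and less RNA per cell cannot be told apart. Of 11 measured stellate markers, 9 reached a log2 intensity of 6 on at least 1 array, with Col1a1, Col1a2, Col3a1 and Vim above 14 on every array. Lrat, the retinol-esterifying enzyme of quiescent stellate cells, was at the floor of the deposited values (log2 4.32) on all 10 arrays, and Gfap was between 4.81 and 5.25. Epcam, Lyve1 and Cd163, which mark biliary, endothelial and macrophage cells, were at the floor on all arrays, and the leukocyte marker Ptprc on 8. Cd14, a marker of macrophages, was at 8.82 to 9.48 on the 10 arrays and made up most of the macrophage and leukocyte sum. Summed intensity was 395 to 468 for 7 hepatocyte markers and 563 to 831 for 5 macrophage and leukocyte markers, against 104351 to 131110 for the stellate markers. No gene of the lipid set was at the floor on any array.

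Before the comparisons, 1 array has to be described by itself. In untransfected cells at passage 43, 27 of the 34 genes were lower than on each of the other 9 arrays, a pattern that 19.7% of all 27520 tested probe sets had. Another 2, Srebf1 and Vldlr, were higher there than on the other 9 arrays, against 21.9% of all probe sets. Every one of the 17 enzymes from mevalonate to cholesterol was among the 27. There is 1 array per line and passage, so this difference has no replicate check and no test.

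The 2 genes with the lowest passage 43 values relative to passage 42 act early in the pathway. Acat2, the cytosolic acetoacetyl-CoA thiolase that feeds mevalonate synthesis, was at log2 10.50 in untransfected cells at passage 42 and at 8.12 at passage 43, 5.22-fold lower. Its scrambled arrays were at 11.44 and 11.14, and its 6 clone arrays ran from 11.05 through a median of 11.18 to 11.33. The untransfected array of passage 43 was the lowest of the 10 and that of passage 42 the next lowest, with no overlap between untransfected arrays and the others.

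Idi1, the isomerase of isopentenyl diphosphate, was at 11.08 and 8.70 in untransfected cells at the 2 passages, 5.17-fold lower at passage 43. Its scrambled arrays were at 11.78 and 11.49, and its clone arrays ran from 11.75 to 12.05 with a median of 11.85. Sqle, the squalene epoxidase and a rate-limiting step of the sterol branch, was at 10.63 and 8.80 in untransfected cells, 11.35 and 10.99 in scrambled cells, and 11.05 to 11.40 in the clones with a median of 11.20. Both genes show the same order of arrays as Acat2. These 3 genes were chosen after their values were seen.

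Over the 17 mevalonate and sterol enzymes, passage 43 minus passage 42 in the untransfected line had a median of -1.17 on the log2 scale, from -2.38 for Acat2 to -0.49 for Mvk, mevalonate kinase, and all 17 were below 0. The median of all tested probe sets was 0. In the scrambled line the median of the enzymes was -0.17, and for the clones S1, S4 and S5 it was 0.06, -0.18 and -0.02. For the probe sets used, the whole range in these 4 lines was from -0.43 to 0.32. The 9 fatty acid genes had a median of -0.76 in untransfected cells, with 8 below 0.

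At a fold of at least 2, 15 of the 34 genes were lower at passage 43 in the untransfected line, against 1.35% of all tested probe sets. They were Idi1, Fdps, Acat2, Fdft1, Sqle, Cyp51, Msmo1, Nsdhl, Hsd17b7, Dhcr7, Insig1, Stard4, Scd, Fasn and Elovl6. Srebf1 alone was at least 2-fold higher, against 0.643% of probe sets. For the probe sets used, 0 of the 34 genes were at least 2-fold lower in each of the other lines. The shares of all probe sets were 0.454% in scrambled cells, 0.127% for S1, 0.149% for S4 and 0.203% for S5.

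The further probe sets of these genes mostly showed the same array. Of 20 further probe sets of genes whose first probe set was lower at passage 43 in untransfected cells, 16 were lower too. The second probe set of Srebf1 was also higher, at 8.43 and 9.77. That of Hsd17b7 was lower at passage 43 in every line, not only in untransfected cells (7.66 and 5.97). It was at 8.49 and 7.48 in scrambled cells. In S1, S4 and S5 it was at 8.28 and 8.12, 8.51 and 7.90, and 8.42 and 8.19. In Stard4, a carrier of cholesterol between membranes, 2 probe sets were lower, at 7.38 and 5.99 and at 7.33 and 6.10, and the remaining one was at 6.21 and 6.22. In Abca1 the probe set with the highest mean was lower, at -0.45, another was at -0.02, and the other 2 were higher.

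**Figure D1:**
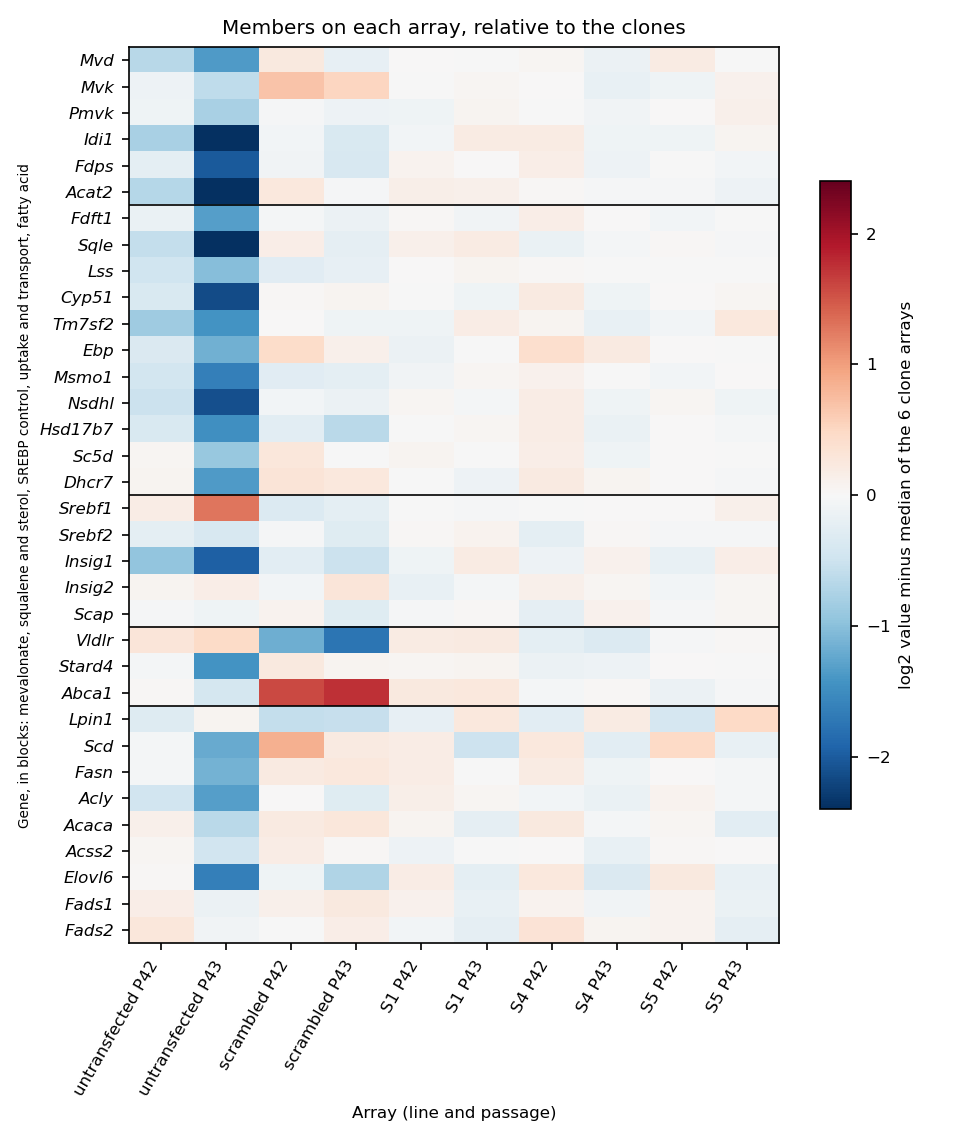
Heat map of 34 genes (rows, in blocks by role) on 10 arrays (columns), coloured by the log2 value minus the median of the 6 clone arrays. The column of untransfected cells at passage 43 is blue in most enzyme rows and red for Srebf1, while the 2 scrambled columns stand out at Vldlr (blue) and Abca1 (red).

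**Figure D2:**
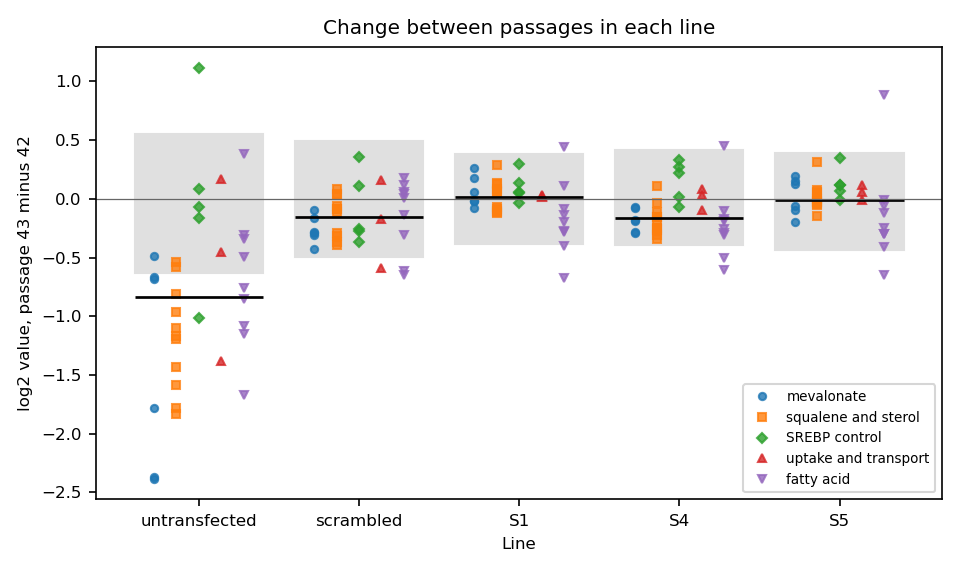
Change of each gene from passage 42 to 43 (log2) in the 5 lines, with 1 point per gene, a black line at the median of the 34 genes and a grey box from the 5th to the 95th percentile of all tested probe sets. In the untransfected line the median is -0.83, and in the other 4 lines it lies between -0.16 and 0.02.

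Proliferation markers were also low on that array. All 7 measured markers were lower at passage 43 in untransfected cells, with a median of -0.93. Their summed intensity was 14415 at passage 42 and 7564 at passage 43, against 15949 to 16849 in scrambled cells and 9949 to 15560 in the clones. All 7 were lower at passage 43 in each clone too, with medians of -0.64, -0.45 and -0.63 in S1, S4 and S5, where the sterol enzymes had medians between -0.18 and 0.06. In scrambled cells 4 of the 7 were lower (median -0.14). The part of growth state in the values of the lipid genes was not tested.

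**Figure D3:**
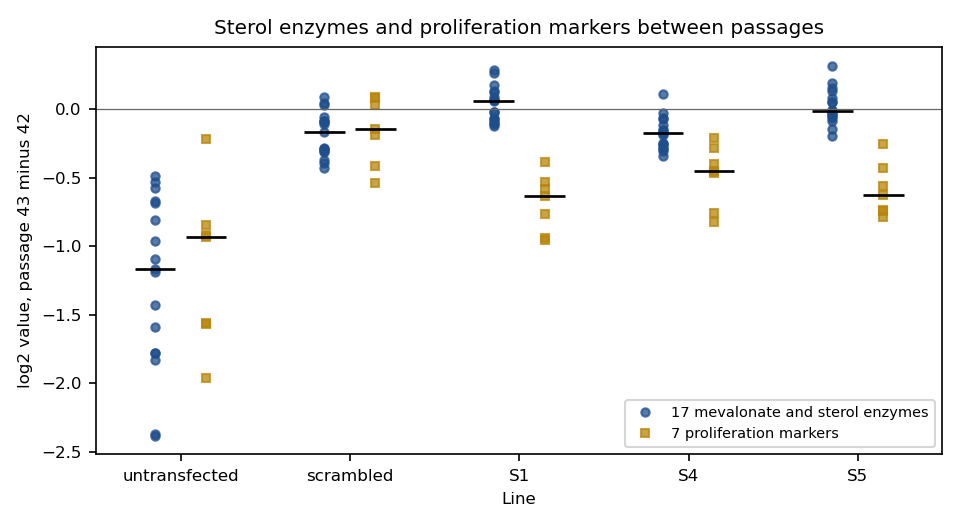
Passage 43 minus passage 42 (log2) for 17 mevalonate and sterol enzymes (circles) and 7 proliferation markers (squares) in each line, with black lines at the medians. Both sets are low in the untransfected line, with medians of -1.17 and -0.93, whereas in each clone the median of the markers lies below that of the enzymes, and the sets overlap in S4.

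The clones were first compared with the untransfected line. In the clones 7 of the 34 genes were higher, namely Mvd of the mevalonate steps, Lss, Tm7sf2, Ebp and Msmo1 of the 11 squalene and sterol enzymes, Insig1 and Acly. They passed the limma test (Benjamini-Hochberg adjusted p under 0.05), against 4.12% of all probe sets called higher, and 27 did not pass. None was lower (4.51% of all probe sets). The 34 genes had a median log2 difference of 0.69, and 29 were above 0, where the median of all probe sets was -0.0061. Of the 17 mevalonate and sterol enzymes, 5 rose and 12 did not pass, with all 17 above 0. The counts rest on the untransfected array of passage 43. Without it 1 gene passed (Lss, 2.20% of all probe sets called in either direction) and the median was 0.14. Without the untransfected array of passage 42, 24 passed, 23 higher and 1 lower (12.3% of all probe sets called).

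Insig1, the retention protein of Scap and itself a sensitive SREBP target, had the largest rise among the 7 that passed. It was at log2 11.18 and 10.17 in untransfected cells at passages 42 and 43, and at 11.95, 12.14 and 12.33 (lowest, median and highest) on the 6 clone arrays. The groups did not overlap, and both untransfected arrays lay below every clone array. The difference was 1.47 (SE 0.25, limma adjusted p = 0.0127), and it was 1.51, 1.45 and 1.45 for S1, S4 and S5, each past the threshold. Without the untransfected array of passage 43 it was 0.96 (limma adjusted p = 0.0714).

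Tm7sf2, a sterol reductase acting after lanosterol, was at 8.45 and 7.87 in untransfected cells and at 9.12, 9.30 and 9.55 in the clones, again with no overlap. It rose by 1.16 (SE 0.17, limma adjusted p = 0.00756), and by 0.87 without the low array (limma adjusted p = 0.0704). Mvd, the decarboxylase that ends the mevalonate steps, was at 8.42 and 7.74 against 8.96, 9.10 and 9.29. Mvd passed the threshold in S5 but not in S1 or S4. Its rise was 1.03 (SE 0.19, limma adjusted p = 0.0169), and 0.69 without that array (limma adjusted p = 0.117).

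Msmo1, a sterol C4-methyl oxidase, was at 11.65 and 10.45 in untransfected cells and at 12.01, 12.09 and 12.19 in the clones, a rise of 1.04 (SE 0.26, limma adjusted p = 0.0478). Ebp, the sterol isomerase, was at 8.62 and 7.81 against 8.83, 8.96 and 9.36, a rise of 0.83 (SE 0.20, limma adjusted p = 0.0419). No single clone passed the threshold for either gene. The call of each was lost in 15 of 22 alternatives tried, among them leaving out any single scrambled or clone array. Both untransfected arrays lay below every clone array for each of the 2 genes. Without passage 43 of the untransfected line they were at 0.44 and 0.42 (limma adjusted p = 0.0728 and 0.193).

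Acly, the citrate lyase that supplies cytosolic acetyl-CoA to both pathways, was at 10.96 and 10.11 in untransfected cells and at 11.26, 11.43 and 11.56 in the clones. Acly passed the threshold in no single clone. Acly lost its call in 14 of 22 alternatives tried, among them leaving out any single scrambled or clone array. It rose by 0.89 (SE 0.20, limma adjusted p = 0.0365) and was at 0.46 without the low array (limma adjusted p = 0.147). Lss, the lanosterol synthase, was the seventh, and passed in S1 and S4 but not in S5. Its second probe set was at 8.43 and 8.33 in untransfected cells. That probe set was higher by 0.92 in the clones (limma adjusted p = 0.000702) and by 0.78 in the scrambled line (limma adjusted p = 0.00546). The probe set of Lss with the highest mean was at 10.12 and 9.59 against a narrow 10.59 to 10.67. Its difference was 0.76 (SE 0.13, limma adjusted p = 0.0134), and with the low array left out it was 0.49 and still passed (SE 0.07, limma adjusted p = 0.0367).

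The genes with the largest differences did not pass, and their SEs were larger, since the 2 untransfected arrays lay far apart. Idi1 was at 1.99 (SE 0.50, limma adjusted p = 0.0503), Acat2 at 1.89 (SE 0.50) and Sqle at 1.51 (SE 0.39). Without the low array they were at 0.81, 0.70 and 0.59, and the SE of Idi1 was 0.17. With the 5 line means, where the spread comes from the clones alone, 21 genes passed, 20 higher and Srebf1 lower (10.8% of all probe sets called). When passage entered the fit as a replicate block, 14 passed (15% of all probe sets called), all higher, among them Idi1, Acat2 and Sqle (limma adjusted p = 0.0295, 0.0300 and 0.0309).

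With no fit at all, the 6 clone arrays lay above both untransfected arrays for 15 of the 34 genes, against 12.3% of all probe sets, and below both for 2 (Srebf1 and Vldlr), against 13.7%. The untransfected array of passage 42, taken alone, was also below all 6 clone arrays for 15 genes, against 22.1% of all probe sets. Of the 17 mevalonate and sterol enzymes it was so for 13, and the clone median exceeded it by a median of 0.37, from -0.07 to 0.85. Against passage 43 the same median was 1.43, from 0.62 to 3.15. In the arrays of passage 42 alone, a choice made after the data were seen, limma called 0 of the 34 genes (0.0836% of all probe sets), and 15 had an unadjusted p under 0.05. There the untransfected line is 1 array, assumed to vary like the 3 clones. No share of all probe sets at an unadjusted p under 0.05 is given here, so the 15 are not read as particular to the set.

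The clones were then compared with the scrambled line. Here the sterol enzymes did not stand apart. Of the 34 genes 1 was higher (3.93% of all probe sets), 2 were lower (2.97%) and 31 did not pass the limma test. The median difference was 0.06, with 18 above 0 and 16 below, and it was -0.0085 after quantile normalisation, where the median of all probe sets was -0.02. Of the 17 mevalonate and sterol enzymes, 16 had a scrambled mean within 0.5 of the clone mean. The 6 clone arrays lay above both scrambled arrays for 7 genes (13.1% of all probe sets) and below both for 6 (12.2%).

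The exception among the enzymes was Mvk, which was at 9.64 and 9.47 in scrambled cells, at 8.83 and 8.33 in untransfected cells, and at 8.78, 8.95 and 9.05 in the clones. Both scrambled arrays lay above all others. It was lower in the clones than in the scrambled line, at -0.62 (SE 0.14, limma adjusted p = 0.0361). The call was lost on leaving out any 1 of the 8 scrambled or clone arrays, and a further probe set gave -0.64 (limma adjusted p = 0.0343) and another, dim one -0.08.

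Vldlr and Abca1 separated the scrambled line from all other lines. Vldlr, a receptor that takes up triglyceride-rich lipoproteins, was at 10.84 and 10.25 in scrambled cells. It was at 12.30 and 12.47 in untransfected cells and at 11.68, 12.01 and 12.23 in the clones. The scrambled arrays were the 2 lowest, with no overlap. Vldlr was higher in the clones than in the scrambled line by 1.44 (SE 0.15, limma adjusted p = 0.0013), which is 2.71-fold. It was higher by 1.67, 1.18 and 1.46 in S1, S4 and S5. Its 4 probe sets gave 1.44 to 1.57, all past the threshold. The call was lost with the 5 line means (limma adjusted p = 0.0559), where the spread comes from the clones, and with passage 42 or passage 43 alone (limma adjusted p = 0.117 and 0.0702).

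Abca1, the transporter that exports cholesterol to apolipoproteins, was at 9.81 and 9.97 in scrambled cells. It was at 8.25 and 7.80 in untransfected cells and at 8.07, 8.22 and 8.48 in the clones. The scrambled arrays were the 2 highest, and clone and untransfected arrays overlapped. Abca1 was lower in the clones than in the scrambled line at -1.62 (SE 0.12, limma adjusted p = 0.000326), a 3.07-fold difference. The values for S1, S4 and S5 were -1.42, -1.68 and -1.76, and its 4 probe sets gave -1.80 to -1.21, all past the threshold. With passage 42 alone the call was lost (limma adjusted p = 0.0838).

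Some stellate markers differed in the scrambled line too. Of the 11, Lrat was at the floor and not tested. Between clones and scrambled cells 2 passed as higher and 1 as lower, against 3.93% and 2.97% of all probe sets. Acta2, smooth muscle actin, was at 10.14 and 10.22 in scrambled cells and at 12.19 to 13.23 on the other 8 arrays, and Tagln, transgelin, at 12.11 and 11.81 against 13.31 to 14.15. Des, desmin, went the other way, at 7.32 and 7.55 in scrambled cells and 6.43 to 6.93 on the others (clones against scrambled -0.73, limma adjusted p = 0.0249). Markers differed between clones and untransfected cells too. There Lox was higher in the clones at 0.98 (limma adjusted p = 0.0106) and Acta2 lower at -0.66 (limma adjusted p = 0.0154). Their part in the result was not tested.

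Against the untransfected line, Vldlr was at -0.40 (SE 0.15, limma adjusted p = 0.141) in the clones, and its 4 probe sets gave -0.55 to -0.40. It was called lower with the probe set of largest variance (limma adjusted p = 0.0379) and without either scrambled array (limma adjusted p = 0.0334). Abca1 was at 0.25 (SE 0.12, limma adjusted p = 0.279) in the clones. With passage entered as a replicate block, 5 genes passed against the scrambled line, with Lpin1 higher and Scd lower beside Vldlr, Mvk and Abca1. With the 5 line means 5 passed too, namely Hsd17b7, Insig1 and Lpin1 higher and Mvk and Abca1 lower. The share of all probe sets called in these fits is not given here, so the added calls are not read as particular to the set. Without either untransfected array, Srebf1 was called higher beside the 3 genes. The clones are common to the comparisons with each control line, so the difference between those comparisons is that between the control lines.

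That difference was tested directly. The scrambled line was higher than the untransfected line in 5 of the 34 genes by limma (2.23% of all probe sets) and lower in 1 (3.87%), and 28 did not pass. With passage as a replicate block 9 passed, with Scd and Acly higher and Srebf1 lower beside these (13.1% of all probe sets called). The median was 0.77, with 29 above 0. Abca1 rose by 1.86 (SE 0.15, limma adjusted p = 0.00088) and Vldlr was lower at -1.83 (SE 0.18, limma adjusted p = 0.00185). Both kept their call under all 16 alternatives tried, from 1.62 to 2.16 for Abca1 and from -2.13 to -1.54 for Vldlr. Line means and single passages, where calls of these genes between clones and scrambled line were lost, were not among these alternatives.

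The other 4 were enzymes with values given above: Tm7sf2 at 1.09 (SE 0.21, limma adjusted p = 0.0270), Ebp at 1.04 (SE 0.24, limma adjusted p = 0.0476), Mvd at 1.04 (SE 0.23, limma adjusted p = 0.0419) and Mvk at 0.97 (SE 0.17, limma adjusted p = 0.0175). Without the untransfected array of passage 43, only Abca1 and Vldlr passed and the median was 0.20. The calls of these 4 enzymes were also lost without either scrambled array. Without any 1 clone array 3 genes passed, and without the untransfected array of passage 42 the median was 1.23. The shares of all probe sets called in these fits are not given here, so their counts are not read as particular to the set.

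**Figure D4:**
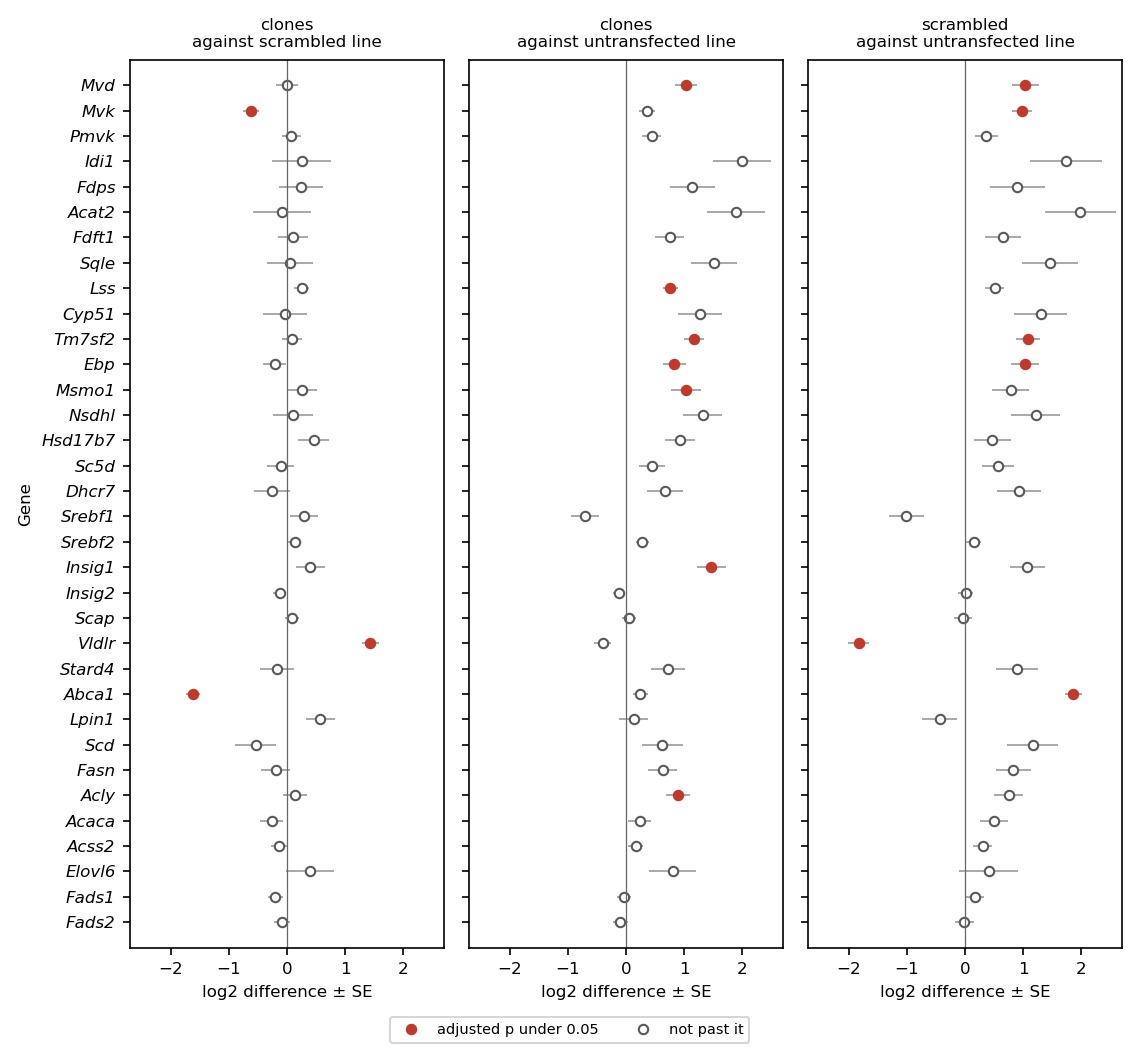
Log2 difference (points, with SE bars) of 34 genes in 3 comparisons of lines, filled where the limma adjusted p was under 0.05. In the first panel the enzymes scatter around 0 and Vldlr (1.44) and Abca1 (-1.62) stand out, while in the other 2 panels most enzymes lie to the right of 0.

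**Figure D5:**
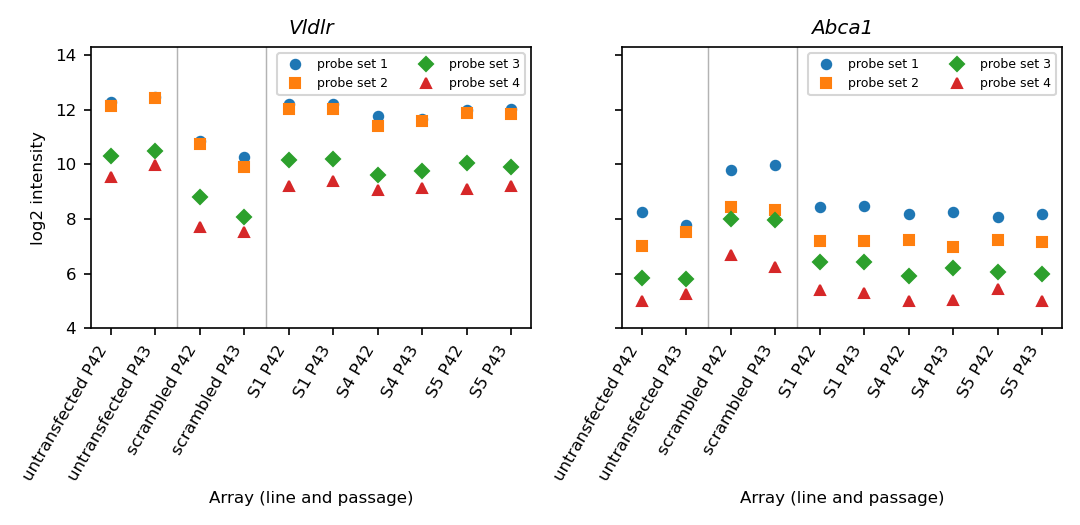
Log2 intensity of the 4 probe sets of Vldlr and of Abca1 on the 10 arrays, with grey lines between the untransfected, scrambled and clone arrays. In each probe set the 2 scrambled arrays are the lowest for Vldlr and the highest for Abca1.

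Of the 5 genes that control the pathway, Insig1 is described above. Srebf1, whose product acts mainly on fatty acid genes, was at 10.67 and 11.79 in untransfected cells, 10.17 and 10.28 in scrambled cells, and 10.47, 10.50 and 10.62 in the clones. The untransfected arrays were the 2 highest and the scrambled arrays the 2 lowest. This order did not hold in the second probe set of Srebf1. There untransfected cells were at 8.43 and 9.77, scrambled cells at 8.26 and 8.10, and the clones between 8.18 and 8.58. The clones were at -0.71 against the untransfected line (SE 0.24, limma adjusted p = 0.119), with -0.15 when its array of passage 43 was left out. The scrambled line was at -1.01 (SE 0.30, limma adjusted p = 0.0917), and -0.45 without that array. Neither passed, but with passage as a replicate block the scrambled line was lower (limma adjusted p = 0.0471).

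Srebf2, the main activator of sterol genes, was at 9.44 and 9.28 in untransfected cells, 9.65 and 9.37 in scrambled cells and 9.43, 9.67 and 9.75 in the clones. Scap was at 9.81 and 9.74, 9.92 and 9.55, and 9.62, 9.84 and 9.95 in the same order, and Insig2, the second retention protein, at 8.60 and 8.68, 8.47 and 8.82, and 8.34, 8.53 and 8.65. The groups overlapped for all 3 genes except that untransfected passage 43 was the lowest array for Srebf2. None of the 3 passed in the fit over all 10 arrays, where their differences lay between -0.13 and 0.28 for the 3 clones together and between -0.24 and 0.36 for single clones. With the arrays of passage 43 alone, Srebf2 was called higher in the clones than in the untransfected line.

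Between passages, with line as a block, 1 of the 34 genes was lower at passage 43 by limma (3.09% of all probe sets), 0 were higher (2.43%) and 33 did not pass. Scd, the stearoyl-CoA desaturase that makes monounsaturated fatty acids, was lower in all 5 lines. It was at 9.95 and 8.80 in untransfected cells and at 10.86 and 10.22 in scrambled cells, and its clone values at the 2 passages were 10.18 and 9.50 (S1), 10.26 and 9.75 (S4) and 10.48 and 9.83 (S5). The change was -0.73 (SE 0.10, limma adjusted p = 0.0141). It was of like size without S1, S4 or S5, at -0.74, -0.78 and -0.75, but the call was lost (limma adjusted p = 0.0927, 0.0628 and 0.0965), as 0 of all probe sets were called in these fits. At an unadjusted p under 0.05 there were 6, 4 and 5 of the 34 in these fits. No share of all probe sets at that level is given, so these counts are not read as particular to the set. Without the untransfected line Scd and Elovl6 passed, both lower.

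Elovl6, the elongase of saturated fatty acids, was lower at passage 43 in all 5 lines too, from -1.67 in untransfected cells to -0.40 in S1 (limma -0.74, SE 0.18, adjusted p = 0.0624). Lpin1, a phosphatidate phosphatase of glycerolipid synthesis, was higher at passage 43 by 0.38 in untransfected cells, 0.01 in scrambled cells, and 0.44, 0.45 and 0.88 in S1, S4 and S5 (limma 0.43, SE 0.12, adjusted p = 0.0770). The second probe set of Lpin1 differed by only 0.005 in untransfected cells and was at 6.13 and 6.14 in scrambled cells. In S1, S4 and S5 that probe set was at 6.78 and 7.56, 6.59 and 7.49, and 6.89 and 7.29. Elovl6 and Lpin1 were chosen after their values were seen. Over the 9 fatty acid genes, 7 were lower at passage 43 in S1, 8 each in S4 and S5, and 4 in the scrambled line (median 0.01). Of all 27520 probe sets, 13434 to 14036 were lower in these lines.

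The passage change was also compared between the clones and the control lines, and limma called 0 of the 34 genes (0.0182% of all probe sets). At an unadjusted p under 0.05 there were 6, with no share of all probe sets given, so they are not read as particular to the set. The median difference was 0.46, with 30 genes above 0, and it was 0.17 without the untransfected line. Insig1, with the smallest p of the 34, was higher at passage 43 in S1, S4 and S5 by 0.30, 0.22 and 0.35 and lower in untransfected and scrambled cells at -1.02 and -0.26. The difference was 0.93 (SE 0.23, limma adjusted p = 0.442).

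The 6 clone arrays spanned 0.07 to 0.98 on the log2 scale, with a median span of 0.31. The gap between the highest and the lowest clone mean had a median of 0.11 for the 34 genes and 0.14 for all probe sets. Limma called 0 of the 34 genes as different between clones (0.0327% of all probe sets), and 0 had an unadjusted p under 0.05 (at most 1 with the block, quantile normalisation or any array left out). Vldlr had the largest gap between clone means at 0.49, with S4 lowest, and Ebp the next at 0.38, with S4 highest. A p that misses the threshold does not show that the clones were equal.

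A list of 74 other genes of sterol and fatty acid metabolism was used for context, of which 58 were measured. Against the untransfected line 3 of them rose in the clones, 4 were lower and 51 did not pass, near the shares of all probe sets (4.12% and 4.51%), with a median of -0.00031. Against the scrambled line 2 rose (3.93% of all probe sets), 7 were lower (2.97%) and 49 did not pass (median -0.01). Star, which moves cholesterol into mitochondria, was at 10.03 and 10.76 in untransfected cells, 10.10 and 9.86 in scrambled cells, and 6.60, 7.04 and 7.62 in the clones. Its clone arrays were all far below the rest, at -3.34 and -2.92 against the untransfected and the scrambled line (limma adjusted p = 0.000155 and 0.000216). Acsl5, an acyl-CoA synthetase, was higher in the clones by 1.39 and 1.05, and Me1, the malic enzyme that supplies NADPH for lipid synthesis, lower at -0.54 and -0.70, each past the threshold. Gramd1b, a carrier of plasma membrane cholesterol, was lower at -1.85 and -1.13. Also past the threshold were Npc2 (0.56) and Soat1 (0.53), higher than in the untransfected line, Osbpl1a (0.50), higher than in the scrambled line, and Lpin3, lower at -0.52 and -0.48. Npc2 carries cholesterol out of lysosomes and Soat1 esterifies it.

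In the scrambled line 3 of these 58 genes were higher than in the untransfected line and 0 lower, against 2.23% and 3.87% of all probe sets. Nr1h3, which encodes an oxysterol receptor of the LXR family, rose by 1.21 (SE 0.14), at 6.08 and 6.26 against 5.05 and 4.87. The latter values are at the level of Gfap, near the floor, so the size of this difference is uncertain. Lpcat3, a phospholipid acyltransferase, rose by 0.64 and Scarb1, the receptor of high-density lipoprotein, by 0.64. All 3, like Abca1, were lower in the clones than in the scrambled line, at -0.79 for Nr1h3, -0.54 for Lpcat3 and -0.52 for Scarb1. Both comparisons use the same scrambled arrays, so they are not independent. At passage 43 of the untransfected line, Tmem97, a sterol-responsive membrane protein, alone among the 58 was at least 2-fold lower, at 10.84 and 9.53. Apoe, the apolipoprotein of cholesterol transport, alone was at least 2-fold higher, at 6.12 and 7.54.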

How the data were processed

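Total RNA of 10 samples was biotin-labelled (Affymetrix one-cycle kit) for arrays, per the labels' protocols. Per the submitters' processing notes RMA was used. The authors deposited linear intensities; its version and any step back from a log scale are not given in the sources. The values have a floor of 20 intensity units (14.6% of values), and array medians were 97.7 to 103.7. Precision is limited by how many arrays there were.

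Of 31099 probe sets, the fit left out 57 controls and 3522 that were at the floor on every array. The log2 intensity of 27520 was tested with limma 3.58.1 (R 4.3.3, lmFit and eBayes, Benjamini-Hochberg over all 27520, threshold 0.05). The main fit had 1 coefficient per line over 10 arrays (5 residual degrees of freedom). Passage was tested with line as a block. Procedures were tested on simulated data. Names and symbols came from the platform annotation. Promoters and miRNA sequences came from RefSeq (GRCr8).

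The members and lists were chosen with earlier results of these data known. Genes were named by role and, up to 6 a direction, by size among those past the threshold. The main fit has no block, and the passage numbers pair the lines: all 10 pairs of lines had passage deviations correlated above 0.1, from 0.136 to 0.648. Alternatives were the replicate block, quantile normalisation, a filter on dim probe sets, a pseudocount of 50, other choices of probe set, line means, and leaving out arrays, clones or lines.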

Additional observations from a re-analysis of the deposited data

Results flagged for a closer look

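Among the 6 clone arrays of each of the 34 genes, 2 arrays lay far from the other 5 relative to the range. The value of Srebf1 in S5 at passage 43 was 10.62, 0.11 above the next array in a range of 0.15. The value of Srebf2 in S4 at passage 42 was 9.43, 0.21 below the next in a range of 0.32. Chance flags about 1 in 20 such groups, and these 6 arrays are 3 clones at 2 passages.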

How the results depend on the processing

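The counts of called genes depended on the fit, while no direction of the 23 gene results tried was reversed. Against the untransfected line, 7 genes were called in the main fit, 14 when passage was a replicate block, 21 with the 5 line means, 12 with only probe sets of mean log2 at least 6, 4 with log2(value + 50), and 3, 4 and 3 without clone S1, S4 or S5. With arrays of passage 42 alone it was 0 (15 at an unadjusted p under 0.05) and with passage 43 alone 23, both chosen after the data were seen. Leaving out 1 array gave 1 to 24, the extremes being untransfected passage 43 and passage 42, and 3 to 5 for any other array. Against the scrambled line, 3 genes were called, 5 with the replicate block, 5 with the line means and 0 with passage 42 alone (7 at an unadjusted p under 0.05), and 2 to 4 with 1 array left out. For the scrambled against the untransfected line, 6 were called, and 2 to 26 with 1 array left out. For passage, 1 was called, 0 without line as a block (no replicate block, 3 at an unadjusted p under 0.05), 2 without the untransfected line, and 0 without S1, S4 or S5. The cause of these changes was not tested. The share of all probe sets called also differed between fits where it is given above, so these counts are not read as particular to the set. No share is given for the counts at an unadjusted p under 0.05, which are not read so either. Over the single genes, 306 of the alternative values kept their side of the threshold, 108 lost a call and 23 gained one. The replicate block moved no other count of the 34 genes by over 1.5 times, although it added calls of Scd, Acly and Srebf1 between the control lines (9 in all). The limma tests of differences between clones and of the passage change called 0 genes under every alternative run. No gene of the set was at the floor, which is not a measure of background.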
